A study of Mus musculus with 12 samples.

Results

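The genes described here are the JNK branch of the MAP kinase cascade and the kinases that feed it: the JNKs Mapk8, Mapk9 and Mapk10, the MAP2 kinases Map2k4 and Map2k7, and the MAP3 kinases Map3k1, Map3k5, Map3k7 and Map3k8. They were chosen by symbol and are 9 of the 54104 entries of the expression matrix that carry a mouse Ensembl gene identifier. The matrix covers 12 bulk RNA sequencing libraries in 4 groups of 3, Ly6C or Ly6G by label and from spleen or tumor. The series sets monocytic against polymorphonuclear myeloid-derived suppressor cells (M-MDSCs and PMN-MDSCs), immature myeloid cells that build up in tumor-bearing animals, and its title concerns a MAPK inhibitor. Antibodies to the surface proteins Ly6C and Ly6G are commonly used to sort them. No library was labelled as treated, and strain, age, tumor model, sorting gate and number of animals were not given in the sources used here. Nothing in the labels says whether replicates came from separate animals, so p-values measure only the spread between these libraries. Levels are in FPKM, the number of sequenced fragments scaled by gene length and library size, and being per length they can be compared between genes.

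JNK signalling runs through a chain of kinases that switch each other on by phosphorylation. MAP3 kinases sense stress, cytokine receptors and Toll-like receptors, and they phosphorylate the MAP2 kinases MAP2K4 and MAP2K7. These in turn phosphorylate the JNKs, which act on transcription factors such as JUN and on regulators of cell death. In neutrophils and monocytes the cascade is known for its part in cytokine production, oxidative stress responses and survival. RNA levels do not measure the phosphorylation by which it signals.

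Promoter sequence was read for the 4 members whose level differed between spleen and tumor in both labels. The set of RefSeq promoter sequences used here (GRCm38.p6) had an entry for 8 of the 9 members, all but Map3k8. Each window below is the plus or minus strand sequence of up to 250 bases before the first RefSeq start site, 5′ to 3′, and the Map3k5 window stops 54 bases short of that site, where the GENCODE transcript begins. The windows are chr11:49846501-49846750 (plus strand) for Mapk9, chr11:65788360-65788609 (minus strand) for Map2k4, chr13:111808994-111809243 (minus strand) for Map3k1 and chr10:19934276-19934471 (plus strand) for Map3k5. Capitals mark matches to the searched motifs.
Mapk9: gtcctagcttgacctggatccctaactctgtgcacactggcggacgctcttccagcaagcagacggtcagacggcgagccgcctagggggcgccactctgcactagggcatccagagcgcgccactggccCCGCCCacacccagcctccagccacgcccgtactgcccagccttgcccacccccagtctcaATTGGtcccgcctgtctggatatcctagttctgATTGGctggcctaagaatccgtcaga
Map2k4: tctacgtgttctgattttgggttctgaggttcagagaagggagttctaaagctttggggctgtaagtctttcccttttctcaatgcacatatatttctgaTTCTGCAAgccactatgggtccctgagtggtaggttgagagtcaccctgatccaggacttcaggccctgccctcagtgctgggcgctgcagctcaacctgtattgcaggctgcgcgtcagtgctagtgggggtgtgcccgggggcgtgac
Map3k1: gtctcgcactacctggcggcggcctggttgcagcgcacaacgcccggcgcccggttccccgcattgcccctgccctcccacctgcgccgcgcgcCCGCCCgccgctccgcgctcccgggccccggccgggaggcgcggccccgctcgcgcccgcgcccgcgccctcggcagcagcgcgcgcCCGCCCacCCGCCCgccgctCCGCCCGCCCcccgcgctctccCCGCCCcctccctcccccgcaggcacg
Map3k5: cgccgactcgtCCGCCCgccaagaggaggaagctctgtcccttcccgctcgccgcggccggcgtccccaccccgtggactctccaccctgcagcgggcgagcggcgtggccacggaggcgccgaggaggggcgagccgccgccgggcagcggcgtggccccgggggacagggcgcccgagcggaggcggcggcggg

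The 8 motifs searched on both strands were AP-1 (TGANTCA), the cyclic AMP response element CRE (TGACGTCA), PU.1 (GAGGAAGT), C/EBP (TTGCNNAA), NF-kappaB, the GC box (GGGCGG), the CCAAT box (CCAAT) and the E-box (CACGTG); no motif contains another. Across 32851 promoter windows of 250 bases, these were present in 6.75%, 1.55%, 2.44%, 9.56%, 17.63%, 32.74%, 33.85% and 6.02%. The Map3k1 window held 6 GC boxes, of which 2 overlap, the Map3k5 window 1 and the Mapk9 window 1. The Mapk9 window also held 2 CCAAT boxes. The Map2k4 window held 1 C/EBP match and no GC box. None of the 4 windows matched AP-1, CRE, PU.1, NF-kappaB or the E-box. The windows differed in base composition, from a GC content of 54.0% and 6 CpG dinucleotides for Map2k4 to 85.2% and 45 for Map3k1, with Mapk9 at 63.6% and Map3k5 at 81.1%. The median over all windows was 52.4%. The motif matches describe these letters only.

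**Figure D1:**
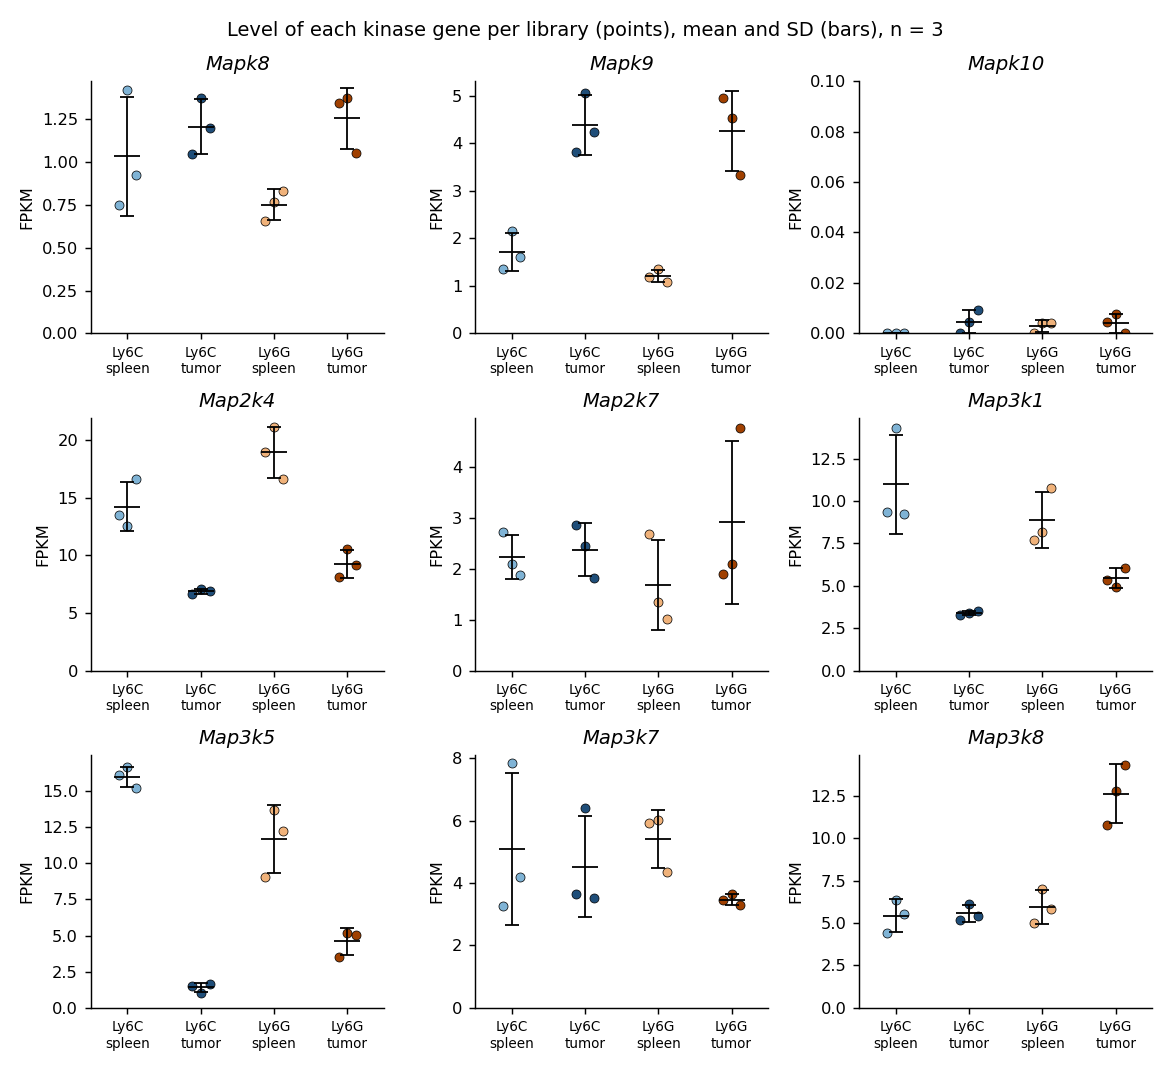
Level of each of the 9 kinase genes in FPKM (vertical axes, each starting at 0) in every library of the 4 groups; points are libraries, horizontal lines are means and bars are SD, n = 3. In FPKM as deposited, Mapk9 lies higher in both tumor groups, Map2k4, Map3k1 and Map3k5 lie lower in both, Map3k8 stands apart in Ly6G tumor, and Mapk10 stays at or below 0.01.

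The tumor libraries differed from the spleen libraries in their cell markers, and this applies to every comparison between tissues below. All 20 of 20 pan-leukocyte genes were lower in tumor in both labels (adjusted p under 0.05, limma), and their summed level was 4142 to 4778 FPKM in Ly6C spleen against 176 to 357 in Ly6C tumor, and 5008 to 5199 in Ly6G spleen against 430 to 741 in Ly6G tumor. Of all tested genes 30.5% were lower and 46.2% higher in Ly6C tumor, and 24.7% were lower and 51.5% higher in Ly6G tumor. Neutrophil markers were lower in tumor for 12 of 12 genes in both labels, as were B cell markers (8 of 8), T cell markers (4 of 4) and erythroid markers (6 of 6), and monocyte markers were lower for 8 of 8 in Ly6C and 6 of 8 in Ly6G. Macrophage markers were lower for 2 of 6 in Ly6C and 5 of 6 in Ly6G. Their sums were 75.9 to 149 FPKM in Ly6C spleen and 49.9 to 115 in Ly6C tumor. In Ly6G these sums were 185 to 461 in spleen and 33.1 to 193 in tumor, so the tissues overlapped in both labels. Of 2 tested endothelial markers, Pecam1 was lower in both labels and Cdh5 was higher in Ly6G only. Of 8 listed epithelial markers only Krt8 and Krt18 passed the expression filter, and these 2 were higher in tumor in both labels. The other listed ones were not tested, and Epcam was at 0 in all Ly6C tumor libraries. Krt8 lay between 356 and 770 FPKM in tumor and at or below 0.263 in spleen. Fibroblast markers were higher in tumor for 5 of 7 tested genes in Ly6C and 7 of 7 in Ly6G, with sums of 192 to 364 FPKM in Ly6C tumor against 0.855 to 1.05 in its spleen, and of 137 to 323 against 0.489 to 0.606 in Ly6G. The gene Ly6g lay between 131 and 209 FPKM in Ly6C spleen and between 591 and 717 in Ly6G spleen, and between 11.8 and 13.8 in Ly6C tumor and 31.5 and 54.1 in Ly6G tumor. Ly6c2 was at 223 to 272 FPKM in Ly6C spleen and 170 to 237 in Ly6G spleen, and at 6.35 to 8.16 and 5.31 to 7.80 in the tumor groups, so the labels overlapped in both tissues. Mitochondrial genes took 3.07% to 11.9% of FPKM in tumor libraries and 1.68% to 2.87% in spleen libraries, so every tumor library lay above every spleen library; their part was not tested. In these bulk samples fewer cells of a type and less RNA per cell cannot be told apart, and the part of cell composition in the changes of the kinase genes was not tested. The depth of the libraries is unknown. Total FPKM per library was 331681 to 449309.

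Between tissues most genes changed, which sets the background for the members. On the deposited scale 4 of the 8 tested members passed in Ly6C (1 higher, 3 lower), where 76.7% of all 13610 tested genes passed (46.2% higher and 30.5% lower). In Ly6G libraries 6 of 8 passed (3 higher, 3 lower), where 76.2% of all genes passed (51.5% higher and 24.7% lower). The median change of the members was -0.03 in Ly6C and -0.08 in Ly6G on the log2(FPKM + 1) scale, beside 0.27 and 0.43 over all tested genes. Groups did not overlap for 4 of 8 members in Ly6C and 7 of 8 in Ly6G, against 78.5% and 79.1% of all genes. The split of all passing genes moved with the scaling, to 5342 higher and 5122 lower in Ly6C and 5259 and 5030 in Ly6G with median-of-ratios factors, to 12415 and 459 and to 12161 and 505 on the pan-leukocyte scale. The description turns on which members changed and which way.

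The JNKs come first. Mapk9, which encodes JNK2, rose in tumor in both labels. Its level was 1.37, 2.15 and 1.61 FPKM in Ly6C spleen and 3.83, 5.07 and 4.24 in Ly6C tumor. The Ly6G values were 1.18, 1.35 and 1.09 in spleen and 4.95, 4.52 and 3.33 in tumor. Every tumor library exceeded every spleen library. The ratio of means was 2.56-fold in Ly6C and 3.54-fold in Ly6G. On the log2(FPKM + 1) scale the change was 0.99 ± 0.15 (SE, n = 3; limma adjusted p = 7.618e-05) in Ly6C and 1.24 ± 0.15 (1.234e-05) in Ly6G. Relative to the median change of all genes it stayed positive under all 6 library scalings that were computed, from 0.57 to 0.75 in Ly6C and 0.56 to 0.86 in Ly6G. All scalings but quantile normalization multiply a library by a single factor. Subtracting the median largely removes that factor, so they are not separate checks. The 2 tumor groups overlapped each other, with means of 4.38 ± 0.63 and 4.27 ± 0.84 FPKM (SD, n = 3).

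Mapk8, which encodes JNK1, was low everywhere and changed less. It lay at 0.75, 1.42 and 0.93 FPKM in Ly6C spleen and 1.05, 1.37 and 1.20 in Ly6C tumor, so these groups overlapped (change 0.13 ± 0.13 SE, limma adjusted p = 0.369). For Ly6G the values were 0.66, 0.77 and 0.83 in spleen and 1.34, 1.38 and 1.05 in tumor, and the groups did not overlap. The Ly6G change of 0.36 ± 0.13 passed (limma adjusted p = 0.0217), but it was lost without Ly6G spleen replicate 1 (adjusted p = 0.0714), without tumor replicate 1 (0.0632) or without tumor replicate 2 (0.0647), and it turned to -0.22 under quantile normalization. The highest Ly6C spleen value came from replicate 2, the library with the highest Csf1r of its group, 127 FPKM against 51.2 and 39.1. That library also had the group's highest Mapk9, Map3k1, Map3k5, Map3k7 and Map3k8, while Map2k4 and Map2k7 were highest in other libraries. The cause was not tested. An intron of Mapk8 holds the processed pseudogene Gm49037 on the same strand at 5.81 to 43.0 FPKM, with 0 shared exonic bases.

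Mapk10 encodes JNK3, the JNK mostly known from neurons. It was listed at 0 in 6 of the 12 libraries and reached 0.0092 FPKM at most, in Ly6C tumor replicate 3. It did not pass the expression filter and was not tested. Neuron markers were also near 0, with a summed level of at most 0.48 FPKM over 5 genes, and Syt1 was at 0 in all 4 groups.

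Because Mapk8 and Mapk9 moved unequally, the make-up of the JNK tier differed between tissues. The share of Mapk9 in the summed FPKM of the 3 JNK genes does not depend on the scale of a library. It was 64.5%, 60.1% and 63.4% in Ly6C spleen and 78.5%, 78.6% and 77.8% in Ly6C tumor. Ly6G libraries held 64.2%, 63.7% and 56.5% in spleen and 78.6%, 76.6% and 76.0% in tumor. All 6 tumor libraries lay above all 6 spleen libraries. Over both labels the share rose by 15.6 percentage points, from 62.1% to 77.7% (two-sided exact permutation test within labels, p = 0.005, the smallest possible; Benjamini-Hochberg adjusted p = 0.0114 over 16 share tests). The share of Mapk8 changed by -15.6 points at the same p. Mapk10 held only 0.0733% of the tier in tumor and 0.0708% in spleen. The Mapk8 result therefore mirrors that of Mapk9 and is not a separate one.

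**Figure D2:**
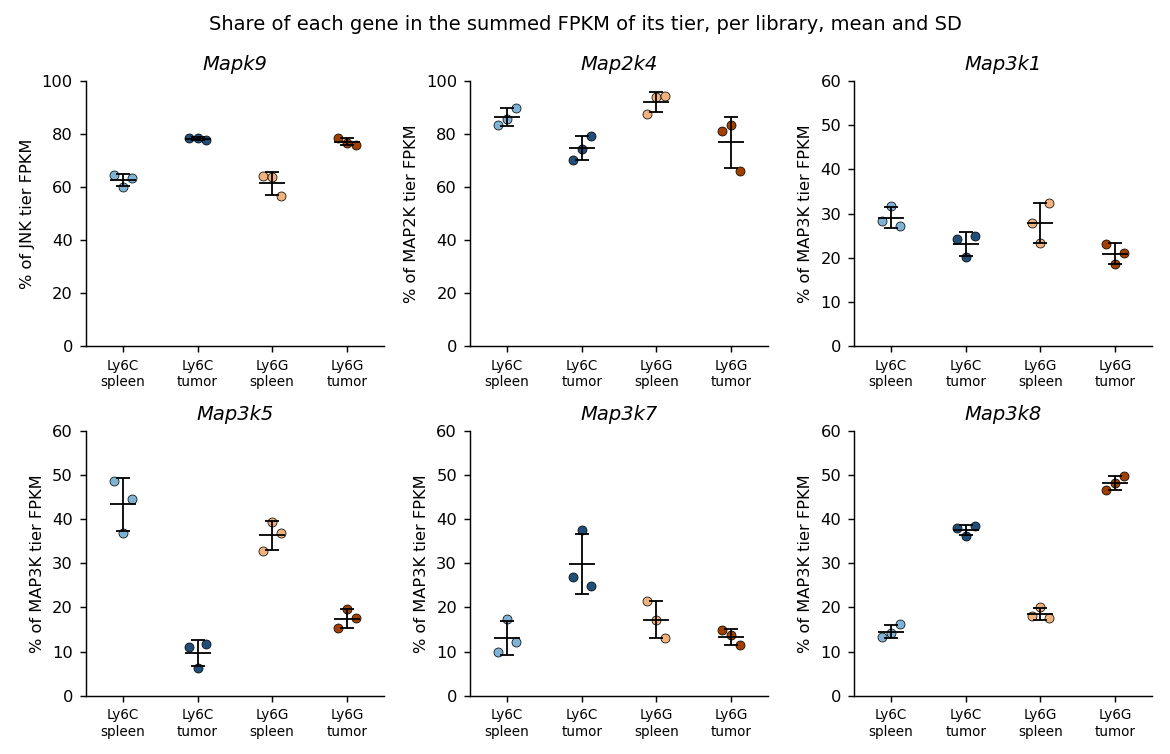
Share of a gene in the summed FPKM of its tier (vertical axes, percent) for Mapk9, Map2k4 and 4 MAP3 kinases in each library, with mean and SD, n = 3 per group. The Mapk9 and Map3k8 shares lie higher and the Map3k5 share lies lower in every tumor library than in every spleen library.

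Among the MAP2 kinases, Map2k4 fell in tumor in both labels on the deposited scale, though not when libraries were scaled to pan-leukocyte genes. MAP2K4 phosphorylates JNKs and also p38 kinases. Its level was 13.5, 12.6 and 16.6 FPKM in Ly6C spleen and 6.69, 7.12 and 6.89 in Ly6C tumor. In the Ly6G libraries it lay at 19.0, 21.2 and 16.7 in spleen and 8.13, 10.6 and 9.19 in tumor. No tumor library reached the lowest spleen library. The mean was 2.06-fold lower in Ly6C tumor and 2.04-fold lower in Ly6G tumor. The changes were -0.94 ± 0.13 (SE; limma adjusted p = 4.435e-05) and -0.96 ± 0.13 (4.037e-05), and their difference between labels was 0.02 ± 0.19 (adjusted p = 0.958). Map2k4 was the MAP2 kinase with the higher level in all 12 libraries.

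The other MAP2 kinase, Map2k7, phosphorylates JNKs and not p38. It lay at 2.71, 2.09 and 1.86 FPKM in Ly6C spleen and 2.86, 2.44 and 1.82 in Ly6C tumor. In Ly6G it was 2.67, 1.35 and 1.003 in spleen and 1.89, 2.08 and 4.75 in tumor. The groups overlapped in both labels, and neither change passed (0.06, adjusted p = 0.848, and 0.52, adjusted p = 0.104; limma). The highest value, Ly6G tumor replicate 3, belongs to the library with the highest mitochondrial share of FPKM, 11.9%. The level of Map2k7 is uncertain, because it shares 1349 exonic bases with the same-strand protein-coding gene Gm49320, which lay at 0.79 to 4.99 FPKM. With both genes summed, an alternative added after the data were seen, the Ly6G change was 1.06 and passed (adjusted p = 2.843e-05), while the Ly6C change was 0.09 (0.561).

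The share of Map2k4 in the summed FPKM of both MAP2 kinases was 83.2%, 85.7% and 89.9% in Ly6C spleen and 70.1%, 74.5% and 79.1% in Ly6C tumor. The Ly6G values were 87.7%, 94.0% and 94.3% in spleen and 81.2%, 83.5% and 65.9% in tumor. Spleen and tumor did not overlap within either label. The share fell from 89.2% to 75.7%, a difference of -13.4 points (two-sided exact permutation test, p = 0.005, adjusted p = 0.0114), and by 24.2 points where Gm49320 was added to Map2k7.

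The MAP3 kinases changed in opposite directions as deposited; Map3k5 and Map3k1 were lower in tumor in both labels except on the pan-leukocyte scale, and Map3k8 was higher in Ly6G tumor. Map3k5 encodes ASK1, which is held inactive by thioredoxin and released by oxidative stress. Its level was 16.1, 16.6 and 15.2 FPKM in Ly6C spleen, the highest mean of any member in that group, and 1.51, 1.05 and 1.67 in Ly6C tumor. For Ly6G the values were 9.08, 13.7 and 12.3 in spleen and 3.53, 5.19 and 5.05 in tumor. All 4 groups stood apart from each other, in the order Ly6C spleen, Ly6G spleen, Ly6G tumor, Ly6C tumor. The mean was 11.3-fold lower in Ly6C tumor than in Ly6C spleen and 2.55-fold lower in Ly6G tumor than in Ly6G spleen. The changes were -2.83 ± 0.17 (SE; limma adjusted p = 2.793e-08) and -1.18 ± 0.17 (4.89e-05), the lowest of the 8 tested members in both labels.

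Map3k1 encodes MEKK1, a kinase that also carries a ubiquitin ligase domain. It lay at 9.38, 14.3 and 9.25 FPKM in Ly6C spleen and 3.30, 3.41 and 3.54 in Ly6C tumor. Ly6G libraries held 7.69, 8.17 and 10.8 in spleen and 5.35, 4.92 and 6.07 in tumor. The spleen groups overlapped each other, and all tumor libraries lay below them. The mean was 3.22-fold lower in Ly6C tumor (change -1.41 ± 0.17 SE, limma adjusted p = 9.451e-06) and 1.63-fold lower in Ly6G tumor (-0.61 ± 0.17, 0.00578). With every library rescaled to an equal sum the Ly6G change was -0.30 and no longer passed (adjusted p = 0.134).

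Map3k8 encodes TPL2, which is kept inactive by the NFKB1 precursor protein and is best known for activating the ERK branch. Its level in Ly6G was 4.996, 6.99 and 5.83 FPKM in spleen and 10.8, 12.8 and 14.3 in tumor, a rise of 2.13-fold in the mean (change 0.98 ± 0.15 SE, limma adjusted p = 9.638e-05). In Ly6C it was 4.43, 6.38 and 5.51 in spleen and 5.16, 6.15 and 5.43 in tumor, and these groups overlapped (0.04 ± 0.15, adjusted p = 0.824). The Ly6G tumor libraries stood above the other 9 libraries, which overlapped each other. Map3k8 had the highest mean of the 9 members in Ly6G tumor, 12.6 ± 1.76 FPKM (SD, n = 3).

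Map3k7 encodes TAK1, which works with the adaptors TAB1, TAB2 and TAB3 downstream of interleukin 1 and Toll-like receptors. It lay at 3.25, 7.84 and 4.18 FPKM in Ly6C spleen and 3.65, 6.39 and 3.53 in Ly6C tumor, with wide overlap (change -0.11 ± 0.26 SE, limma adjusted p = 0.717). In the Ly6G libraries it lay at 5.91, 6.01 and 4.34 in spleen and 3.45, 3.63 and 3.29 in tumor. The Ly6G groups did not overlap, but the change of -0.52 ± 0.26 did not pass (adjusted p = 0.0868). It was -0.97 with median-of-ratios factors (0.00263) and -1.02 with quantile normalization (0.00135), where it passed. It also passed without Ly6C spleen replicate 2 (0.0277), which held the highest Map3k7 level of all 12 libraries and enters this comparison only through the shared estimate of the spread.

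**Figure D3:**
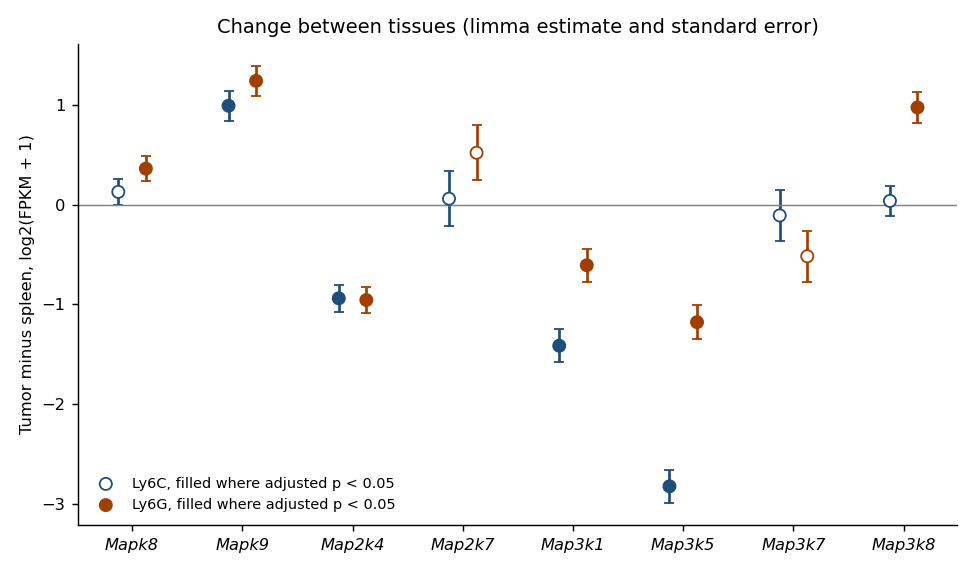
Change between tumor and spleen for the 8 tested kinase genes (vertical axis, log2(FPKM + 1) difference) with its standard error; filled points passed at an adjusted p under 0.05. Map3k5 lies lowest in both labels, at -2.83 in Ly6C and -1.18 in Ly6G, and Map3k8 is separated between the labels at 0.04 and 0.98.

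Within the tier of the 4 listed MAP3 kinases, the shares of Map3k5 and Map3k8 moved in opposite directions. The 4 shares add up to the whole tier, so a fall of some raises others and their tests are not independent. The share of Map3k5 was 48.5%, 36.8% and 44.5% in Ly6C spleen and 11.1%, 6.18% and 11.8% in Ly6C tumor. In Ly6G it was 32.8%, 39.3% and 36.9% in spleen and 15.3%, 19.5% and 17.6% in tumor. The share of Map3k8 was 13.4%, 14.1% and 16.1% in Ly6C spleen and 37.9%, 36.2% and 38.3% in Ly6C tumor, although its level overlapped between these groups. In Ly6G the Map3k8 share was 18.1%, 20.1% and 17.6% in spleen and 46.7%, 48.3% and 49.8% in tumor. Over both labels the Map3k5 share went from 39.8% to 13.6% and the Map3k8 share from 16.5% to 42.9% (differences of -26.3 and 26.3 points, two-sided exact permutation test, p = 0.005 and adjusted p = 0.0114 each). The Map3k1 share fell from 28.5% to 22.0% with the same p. The Map3k7 share went from 15.2% to 21.6%, a difference that did not pass (p = 0.16, adjusted p = 0.302, exact permutation test). It was higher in tumor in Ly6C only, at 29.8% against 13.1%, and 13.3% against 17.2% in Ly6G.

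The direction of the falls depended on what the libraries were scaled to. As deposited, on equal sums, on median-of-ratios factors, under quantile normalization and on equal sums without S100a8 and S100a9, Map2k4, Map3k1 and Map3k5 were lower in tumor in both labels, and on a scale that sets the pan-leukocyte genes equal in all libraries they were higher. On that last scale the median of all tested genes moved to 3.28 in Ly6C and 2.35 in Ly6G, and 7 of 8 members passed as higher in Ly6C and 8 of 8 in Ly6G, with none lower. The members passing in Ly6G were 3 higher and 3 lower as deposited, 4 and 2 on equal sums, and 2 and 4 with median-of-ratios factors or quantile normalization. Map3k5 had the smallest change of the members on the pan-leukocyte scale, at 0.37 in Ly6C (adjusted p = 0.284) and 1.26 in Ly6G. Measured against the median change of all genes, Map2k4, Map3k1, Map3k5 and Map3k7 lay below it in both labels under all 6 scalings. Apart from quantile normalization, these scalings multiply each library by a single factor. This measure largely removes such a factor, so their agreement was mostly fixed beforehand. Map3k5 lay at -3.12 to -2.91 from that median in Ly6C and at -1.69 to -1.09 in Ly6G. For Map3k1 these ranges were -1.71 to -1.27 and -1.11 to -0.55, and for Map2k4 -1.26 to -0.60 and -1.49 to -0.71. Map3k8 lay 0.47 to 0.99 above it in Ly6G.

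**Figure D4:**
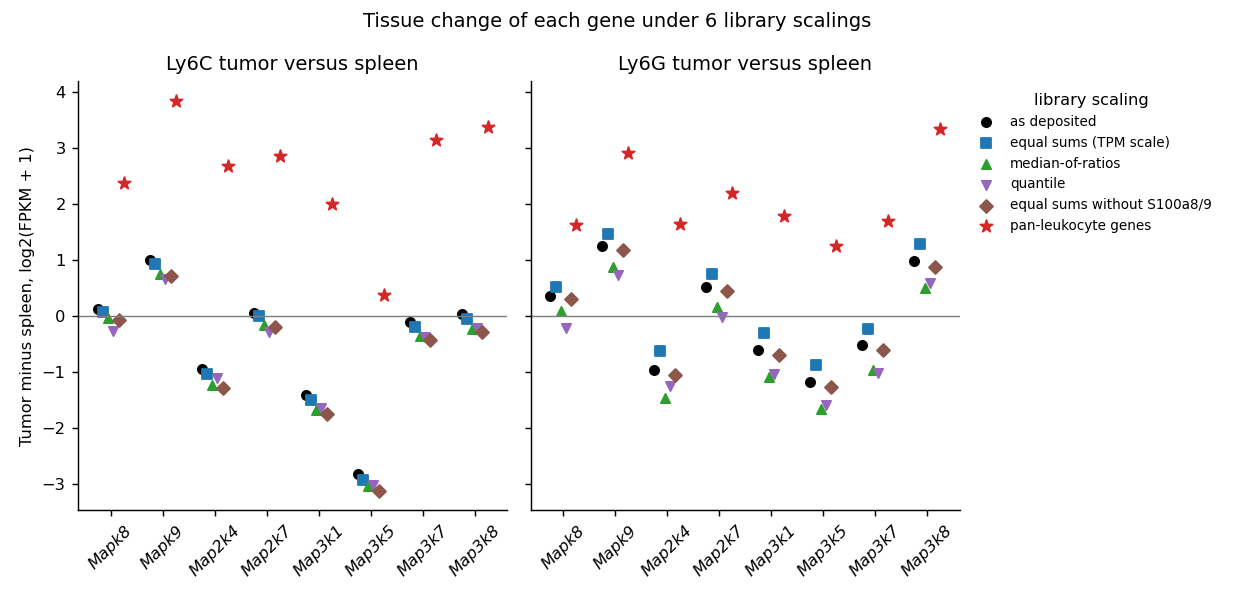
Change between tumor and spleen (vertical axis, log2(FPKM + 1) difference) for the 8 tested kinase genes in Ly6C (left) and Ly6G (right) under 6 scalings of the libraries, each with its own symbol. Scaling to the pan-leukocyte genes moves all 8 genes upward, and Map3k5 remains the lowest of them in both panels.

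The tissue changes differed between the labels for 3 MAP3 kinases. The difference of the tissue effect, Ly6C minus Ly6G, passed for 3 of 8 members, all lower, where 21.8% of all tested genes passed (6.02% higher and 15.8% lower). As deposited 820 genes were higher and 2152 lower in it. Median-of-ratios factors gave 1696 higher and 1443 lower genes, quantile normalization 1606 and 1486, equal sums 275 and 4520, and the pan-leukocyte scale 1777 and 31. It was -1.65 ± 0.24 for Map3k5 (SE; limma adjusted p = 0.00132), -0.94 ± 0.21 for Map3k8 (0.0109) and -0.81 ± 0.24 for Map3k1 (0.0313). For Map3k5 and Map3k1 this means a deeper fall in Ly6C on the deposited scale, and for Map3k8 a rise in Ly6G with no counterpart in Ly6C. The median difference over the members was -0.36 beside -0.10 over all genes. On the pan-leukocyte scale none of the 3 passed. Without the 2 tumor libraries of highest mitochondrial share (7.84% and 11.9%), Map3k5 alone passed, with a difference of -0.84 for Map3k8 (limma adjusted p = 0.0654) and of -0.76 for Map3k1 (0.119). Leaving out 1 library at a time, the difference ran from -1.06 to -0.83 for Map3k8 and from -0.94 to -0.62 for Map3k1, which missed the threshold without any of 7 libraries. For Map2k7 summed with the overlapping gene Gm49320 the difference passed as well (-0.96, adjusted p = 0.00691). Pan-leukocyte genes moved the same way, with 9 of 20 lower in this difference, 5 without Ly6G tumor replicate 3 and 4 without both libraries of highest mitochondrial share, and their part was not tested.

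Within a tissue the labels differed less. In spleen 1 of 8 members passed, Map2k4, which was lower in Ly6C than in Ly6G (change -0.39 ± 0.13 SE, limma adjusted p = 0.0438), where 30.6% of all genes passed (22.1% higher and 8.59% lower). The all-gene split of 3002 higher and 1169 lower became 1775 and 2367 with median-of-ratios factors and 5380 and 567 on equal sums. The Map2k4 call was lost when any of 8 single libraries was left out and when every library was rescaled to an equal sum (adjusted p = 0.657). None was higher, and 2 of 8 had an unadjusted limma p under 0.05, Map2k4 and Map3k5. On equal sums 3 members were higher in Ly6C spleen. Groups did not overlap for 3 of 8 members in spleen, Map2k4, Map3k5 and Mapk9, against 42.1% of all genes. B cell markers were lower in Ly6C than in Ly6G spleen for 8 of 8 genes, with sums of 251 to 387 FPKM against 746 to 1292. T cell markers were lower for 4 of 4, erythroid markers were lower for 6 of 6 (212 to 608 against 885 to 2294 FPKM), and monocyte markers were higher for 4 of 8. Neutrophil markers were lower for 5 of 12 and higher for 1, Elane, with sums of 65090 to 101910 FPKM against 126210 to 160280. The part of these cells was not tested.

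In tumor Map3k5 was lower in Ly6C than in Ly6G, at 1.41 ± 0.32 against 4.59 ± 0.92 FPKM (SD, n = 3), a change of -1.21 ± 0.17 (SE; limma adjusted p = 0.0021). Map3k8 was also lower in Ly6C tumor, at 5.58 ± 0.51 against 12.6 ± 1.76 FPKM (change -1.05 ± 0.15, adjusted p = 0.00237). These were the 2 of 8 members that passed, where 14.5% of all genes passed (5.8% higher and 8.7% lower). This background of 1974 genes was 763 without Ly6C tumor replicate 2, 750 without Ly6C tumor replicate 3, 1117 without Ly6C tumor replicate 1, 1018 without Ly6G tumor replicate 2, 746 without Ly6G tumor replicate 3, and 260 without both replicates 3, which had the highest mitochondrial share. Its split of 790 higher and 1184 lower became 108 and 1437 on equal sums and 1215 and 1162 with quantile normalization. Map3k1 at 3.42 ± 0.12 against 5.45 ± 0.58 FPKM (change -0.54, adjusted p = 0.0508) and Map2k4 at 6.90 ± 0.22 against 9.29 ± 1.22 (-0.38, 0.0786) did not pass, although their groups did not overlap, as was the case for 4 of 8 members and 42.3% of all genes. Neutrophil markers were lower in Ly6C than in Ly6G tumor for 7 of 12 and higher for none. With 1 library left out, 3 to 8 were lower. Their sums were 1381 to 2617 FPKM in Ly6C tumor against 4273 to 8507 in Ly6G tumor, and their part was not tested. Pan-leukocyte genes were lower in Ly6C than in Ly6G tumor for 14 of 20. That count was 7 without Ly6C tumor replicate 2, 9 without Ly6C tumor replicate 3, 6 without Ly6G tumor replicate 2, 5 without Ly6G tumor replicate 3 and 2 without both replicates 3. On the scale that sets the geometric mean of these genes equal, 4 of 8 members were higher in Ly6C tumor and none lower. Of all 13610 tested genes, 9525 were higher and 155 lower on that scale. The share of Map3k8 in its tier was lower in Ly6C than in Ly6G over both tissues (difference -7.41 points, two-sided exact permutation test within tissues, p = 0.005, adjusted p = 0.0114). It was the 1 share of 8 tested that passed between labels, and the share of Map2k4 passed as well where Gm49320 was added to Map2k7 (-11.4 points, adjusted p = 0.02).

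The other 47 genes of the JNK pathway, listed by role, give the setting of the members; 42 of them were tested. In Ly6C 19 were higher and 12 lower in tumor, against 46.2% and 30.5% of all genes, and in Ly6G 27 were higher and 11 lower, against 51.5% and 24.7%. The median change was 0.23 in Ly6C and 0.61 in Ly6G. The split was 16 higher and 15 lower in Ly6C and 21 and 14 in Ly6G with median-of-ratios factors, 15 and 17, and 21 and 14, with quantile normalization, and 28 and 6 in Ly6G on equal sums. Falls of pathway genes are given as deposited, and on the pan-leukocyte scale those of Map3k9 in Ly6G, Map4k2, Map4k1, Tab2, Txn1 and Itch turned positive. In the difference of the tissue effect 18 were lower and 1 higher, against 15.8% and 6.02% of all genes.

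Among 14 tested further MAP3 kinases, 5 rose and 7 fell in Ly6C tumor, where 46.2% of all tested genes were higher and 30.5% lower. In Ly6G tumor 7 rose and 6 fell, where 51.5% of all tested genes were higher and 24.7% lower. The largest fall in both labels was that of Map3k9, which encodes the mixed-lineage kinase MLK1. Its mean was 34.3 ± 8.84 FPKM in Ly6C spleen and 0.778 ± 0.068 in Ly6C tumor (SD, n = 3; change -4.28, limma adjusted p = 4.99e-09), and 14.7 ± 3.76 and 3.30 ± 0.14 in Ly6G (-1.84, 6.118e-06). It was therefore higher in spleen and lower in tumor than Map3k5 in Ly6C. On the log2(FPKM + 1) scale, which understates changes of low genes, the largest rise was that of Map3k10, encoding MLK2, in Ly6C (4.04 ± 1.21 to 13.9 ± 3.10 FPKM, change 1.57) and of Map3k6, encoding the ASK1 relative ASK2, in Ly6G (0.211 ± 0.033 to 8.57 ± 1.65 FPKM, change 2.97, adjusted p = 6.489e-07). Map3k10 rose in Ly6G too (2.39, limma adjusted p = 8.87e-07), and Map3k6 in Ly6C (1.29, 0.000599). Map3k6 and Map3k5 thus moved in opposite directions in both labels as deposited.

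The MAP4 kinases, which act upstream of MAP3 kinases, also divided, with 3 of 6 tested higher and 2 lower in Ly6C tumor, and 4 higher and 2 lower in Ly6G tumor. The shares of all tested genes were 46.2% higher and 30.5% lower in Ly6C, and 51.5% and 24.7% in Ly6G. Map4k5 rose from 1.64 ± 0.11 to 16.5 ± 2.60 FPKM in Ly6C (SD, n = 3; change 2.72, limma adjusted p = 7.495e-09) and from 1.37 ± 0.14 to 15.0 ± 2.40 in Ly6G (2.74, 8.289e-09). Map4k2 fell in Ly6C from 67.6 ± 11.6 to 6.62 ± 1.67 FPKM (-3.18, 6.574e-08), and it fell in Ly6G too (-2.15, 1.989e-06). Map4k1, which encodes the blood cell kinase HPK1, fell in Ly6G from 33.8 ± 8.53 to 6.26 ± 0.95 (-2.24, 4.791e-07), and it fell in Ly6C too (-2.43, 2.15e-07).

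Among 12 tested scaffolds and adaptors, 4 rose and 2 fell in Ly6C tumor, and 7 rose and 2 fell in Ly6G tumor. Beside these stand 46.2% higher and 30.5% lower of all tested genes in Ly6C, and 51.5% and 24.7% in Ly6G. Mapk8ip1, the scaffold JIP1 that holds JNK and its upstream kinases together, rose from 0.060 ± 0.029 to 13.6 ± 2.01 FPKM in Ly6C (SD, n = 3; change 3.77, limma adjusted p = 1.093e-10) and from 0.062 ± 0.036 to 11.8 ± 0.96 in Ly6G (3.59, 1.798e-10). Tab2, the TAK1 adaptor, fell in Ly6C from 18.7 ± 3.06 to 11.6 ± 0.53 FPKM (-0.64, adjusted p = 0.000409), and it fell in Ly6G too (-0.62, 0.000533). Txn1, which encodes the thioredoxin that binds ASK1, was 352 ± 40.9 in Ly6C spleen and 366 ± 9.38 in Ly6C tumor, and it fell in Ly6G from 600.4 ± 41.3 to 266 ± 23.9 FPKM (-1.17, 6.65e-06). It was the 1 pathway gene whose difference of the tissue effect passed as positive, 1.24 ± 0.19 (SE; adjusted p = 0.00157). Nfkb1, whose precursor protein binds TPL2, was the scaffold or adaptor gene that was highest in Ly6C against Ly6G spleen, at 14.3 ± 2.01 against 8.45 ± 0.57 FPKM (0.69, adjusted p = 0.00102).

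All 4 JNK phosphatase genes were tested, and 3 rose in Ly6C tumor and 4 in Ly6G tumor, against 46.2% and 51.5% of all tested genes. Dusp10 rose from 0.797 ± 0.179 to 7.55 ± 1.48 FPKM in Ly6C (SD, n = 3; change 2.24, limma adjusted p = 5.147e-07) and from 0.595 ± 0.297 to 6.78 ± 1.64 in Ly6G (2.28, 5.014e-07). Dusp1 had a far higher level, 774 ± 65.9 FPKM in Ly6G tumor against 348 ± 70.1 in Ly6C tumor (change -1.16, adjusted p = 0.00237). Of the 6 JNK substrate genes, 4 rose and 1 fell in Ly6C tumor, and 5 rose and 1 fell in Ly6G tumor. Of all tested genes 46.2% rose and 30.5% fell in Ly6C, and 51.5% rose and 24.7% fell in Ly6G. Jun, the transcription factor after which the kinases are named, rose in Ly6G from 100.4 ± 22.9 to 643 ± 30.4 FPKM (2.69, 7.345e-07), and it rose in Ly6C too (0.91, 0.00388). Bcl2l11, which encodes the death protein BIM, had the largest rise of the substrates in Ly6C, from 2.12 ± 0.28 to 4.97 ± 1.28 (0.92, adjusted p = 0.000789). Its rise in Ly6G was larger (2.06, limma adjusted p = 1.069e-06). Itch, a ubiquitin ligase that JNK activates, fell in both labels, from 9.26 ± 1.03 to 4.91 ± 0.56 in Ly6C and from 8.94 ± 1.42 to 5.56 ± 0.43 in Ly6G.

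**Figure D5:**
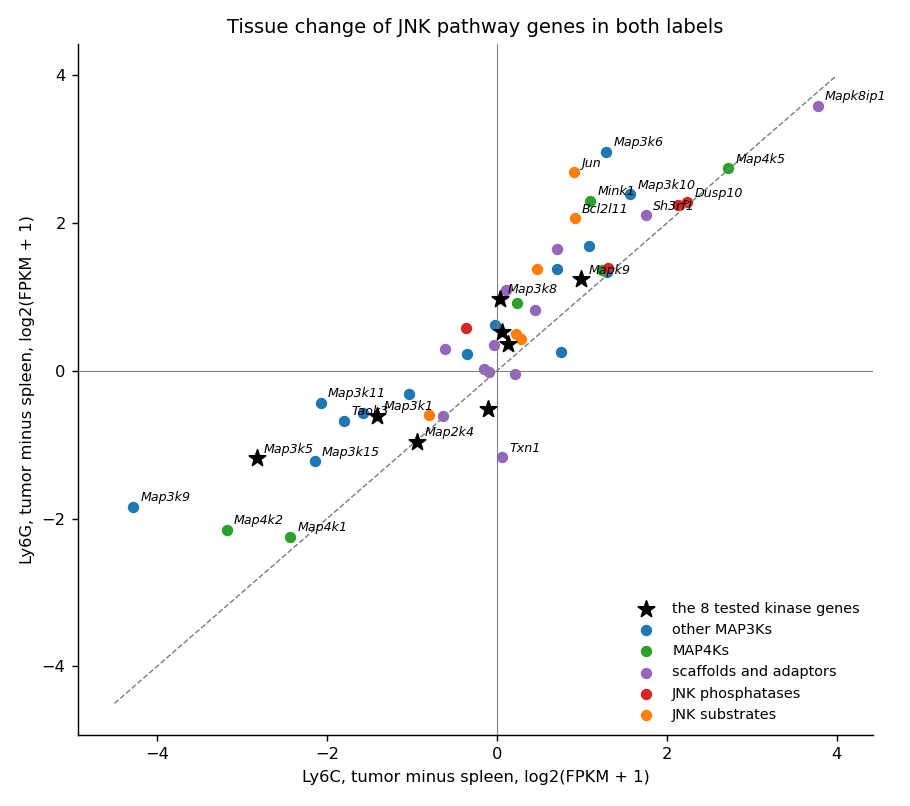
Change between tumor and spleen in Ly6C (horizontal axis) and in Ly6G (vertical axis), log2(FPKM + 1) difference, for the 8 tested kinase genes (stars) and 42 other JNK pathway genes (points, coloured by role); the dashed line marks equal change. Mapk8ip1 lies at the upper end and Map3k9 at the lower left, and Map3k5 lies above the line, where the fall was deeper in Ly6C.

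As a description, the genes whose log2(FPKM + 1) over the 12 libraries was most like a member's were found by Pearson's r, apart from predicted genes. The 12 libraries share the division into spleen and tumor, which all these values contain. The closest were Inpp5d (r = 0.991) and Ccdc88b (0.991) for Map3k5, Il6ra (0.986) and Atp10d (0.979) for Map3k1, Ccpg1 (0.989) and Riok3 (0.989) for Map2k4, and Ccdc117 (0.994) and Alkbh8 (0.993) for Mapk9. They were Tnfrsf26 (0.946) and Arih2 (0.938) for Map3k8, Arl5a (0.962) and Zdhhc21 (0.958) for Mapk8, Slf1 (0.853) and Tmem175 (0.826) for Map3k7, and Sco2 (0.747) and Mir7069 (0.723) for Map2k7.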

How the data were processed

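Per the labels' protocols, column-purified total RNA was made into paired-end Illumina libraries. HISAT2 2.0.5, the build GRCm38 and featureCounts 1.5.0-p3 appear in the submitters' processing notes. The tool and annotation release behind the FPKM values were not given in the sources used here. Values were deposited by the authors as FPKM per gene and library, without counts, so library depth is unknown and no counting interval was computed: 31.3% to 35.1% of low values lay within 0.05 of whole multiples of a common step, so whole fragments were not recovered. The 570 unnamed loci (0.463% to 1.04% of FPKM) were left out. Symbols and gene positions came from GENCODE M21.

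The 13610 genes reaching 1 FPKM in 3 or more libraries were tested as log2(FPKM + 1), where the pseudocount understates changes of low genes, by 1 limma 3.58.1 model of 4 group means (variance trend, 8 residual and 3.4 prior degrees of freedom; two-sided, Benjamini-Hochberg adjusted p under 0.05 over all tested genes). It was tested on simulated data. Tier shares were tested by exact permutation within strata (400 arrangements). All members were named, and per role the passing pathway genes with the highest and lowest change. Members and lists were chosen with earlier results of these data known. Alternatives changed the pseudocount, filter, scaling, model and libraries.

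R 4.3.3, Python 3.11.15, pandas 2.3.3, numpy 2.4.6 and matplotlib 3.10.9 were used.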

Additional observations from a re-analysis of the deposited data

Results flagged for a closer look

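Genes are given here whose change between tumor and spleen differed between Ly6C and Ly6G by a test of that difference (limma, Benjamini-Hochberg adjusted p under 0.05), on the log2(FPKM + 1) scale as Ly6C minus Ly6G. Among the members the difference was -1.65 for Map3k5, -0.94 for Map3k8 and -0.81 for Map3k1. Of the named pathway genes it was -2.44 for Map3k9 (adjusted p = 0.00063), -1.03 for Map4k2 (0.0299), -0.99 for the JNK scaffold Mapk8ip3 (0.00353), -0.95 for the phosphatase Dusp1 (0.0166) and -1.79 for Jun (0.00399). Further pathway genes were Map3k6 (-1.68, 0.008), Bcl2l11 (-1.15, 0.0114), Nfkb1 (-0.90, 0.00299) and Map4k4 (-0.68, 0.0223). For Txn1 it was 1.24. These are not all: 19 of 42 tested pathway genes passed, 18 lower and 1 higher. In spleen, Jun lay at 308 ± 94.3 FPKM for Ly6C against 100.4 ± 22.9 for Ly6G (SD, n = 3), and in tumor at 563.98 ± 92.6 against 643 ± 30.4. Mapk8ip3 was 6.25 ± 0.42 and 6.84 ± 1.17 FPKM in Ly6C spleen and tumor and 4.75 ± 0.53 and 11.2 ± 0.79 in Ly6G.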

How the results depend on the processing

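Alternatives were recomputed 1 at a time. Mapk9 kept its rise and its call in both labels in all of them that tested it (it did not pass a filter at 5 FPKM), and Map3k5 and Map2k4 kept their falls and calls in all but the pan-leukocyte scale. Over all alternatives, member changes kept direction and call in 884 instances, reversed in 64, gained the call in 39 and lost it in 35. The causes of the changes listed here were not tested.

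On the pan-leukocyte scale the tissue change reversed in Ly6C for Map2k4 (2.67), Map3k1 (2.01), Map3k5 (0.37), Map3k7 (3.14), Map4k2 (0.57), Tab2 (3.07) and Itch (2.67), and in Ly6G for Map2k4 (1.64), Map3k1 (1.79), Map3k5 (1.26), Map3k7 (1.69), Map3k9 (0.60), Map4k1 (0.37), Txn1 (1.65) and Itch (1.82). Ly6C against Ly6G in tumor it reversed for Map2k4 (0.68), Map2k7 (0.84), Map3k1 (0.43), Mapk8 (0.85), Map4k2 (0.22) and Mapk8ip3 (0.39). The difference of the tissue effect reversed for Map2k7 (0.67), Map3k1 (0.21), Map3k8 (0.043), Mapk8 (0.76), Mapk9 (0.94), Dusp1 (0.19), Map4k2 (0.018) and Mapk8ip3 (0.15). The members passing were then 7 higher and 0 lower in Ly6C, 8 higher and 0 lower in Ly6G, 0 lower in spleen, 4 higher and 0 lower in tumor, and 0 lower in the difference.

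Changes near 0 reversed under other scalings. In Ly6C between tissues, Map2k7 was -0.0062 on equal sums (TPM scale), -0.16 with median-of-ratios factors, -0.28 with quantile normalization, -0.20 on equal sums without S100a8 and S100a9 and -0.11 with array weights. Map3k8 was -0.045, -0.23, -0.20 and -0.29 under the same 4 scalings. Mapk8 was -0.035 with median-of-ratios factors, -0.26 with quantile normalization and -0.071 without S100a8 and S100a9, and Map3k7 was 0.11 with array weights and 0.017 without both libraries of highest mitochondrial share. In Ly6G, Map2k7 was -0.016 and Mapk8 -0.22 with quantile normalization. In spleen, Map3k7 was 0.13 and Map3k8 0.17 on equal sums, and Map3k8 was 0.010 without S100a8 and S100a9. In tumor, Mapk9 was -0.063 on equal sums, -0.076 without S100a8 and S100a9, -0.0002 with median-of-ratios factors, -0.033 with array weights and -0.084 without both high-mitochondrial libraries, where Map2k7 was 0.29; Mapk8 was 0.061 with quantile normalization. The Map2k4 difference of the tissue effect was -0.40 on equal sums, -0.23 without S100a8 and S100a9 and -0.0022 with a pseudocount of 0.1. The Mapk10 share between tissues was -0.0030 points without both high-mitochondrial libraries.

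Counts of members moved as follows. In spleen the lower count was 0 with no filter, on equal sums with or without S100a8 and S100a9, in the fit of 2 groups alone, with the replicate block and without both high-mitochondrial libraries, and 2 with array weights; the higher count was 3 on equal sums and 1 without S100a8 and S100a9, with a pseudocount of 5, with array weights and with Gm49320 added to Map2k7. In tumor the lower count was 4 on equal sums and with array weights. With a filter at 5 FPKM, which leaves fewer members, the higher count was 0 in Ly6C and 1 in Ly6G, and with array weights it was 2 in Ly6C. The lower count of the difference was 1 without both high-mitochondrial libraries. Of the pathway counts in the report, the pan-leukocyte scale gave 39 higher and 1 lower in Ly6C, 39 and 0 in Ly6G and 1 lower in the difference, equal sums gave 6 lower in Ly6G, and quantile normalization 0 higher in the difference. With Gm49320 added, the Map2k4 share differed by -11.4 points between labels and passed.

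The labels do not say whether replicate numbers pair the libraries. The correlation of deviations between same-numbered libraries ran from -0.36 to 0.28, and such deviations from means of 3 libraries cannot decide it. With the replicate block, Map2k4 lost its call in spleen (adjusted p = 0.0622) and Map3k7 gained one in Ly6G (0.0341). For shares the block allows no p below 0.03125, so none passes after adjustment: the differences stay at 15.6 (Mapk9), -15.6 (Mapk8), -13.4 (Map2k4), -6.45 (Map3k1), -26.3 (Map3k5) and 26.3 points (Map3k8) between tissues, and -7.41 for Map3k8 between labels. Without strata, the last, -7.41 points, had an adjusted p of 0.667 by exact permutation.

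Leaving out each library in turn, the spleen counts ran from 0 to 1 higher and 0 to 1 lower. Changes that crossed 0 were, in Ly6C between tissues, Map2k7 (-0.042 to 0.18), Map3k7 (-0.34 to 0.20) and Map3k8 (-0.078 to 0.14), in spleen Map3k7 (-0.44 to 0.086) and Map3k8 (-0.21 to 0.0084), in tumor Map2k7 (-0.33 to 0.16), Mapk8 (-0.098 to 0.021) and Mapk9 (-0.099 to 0.13), and the Map2k4 difference of the tissue effect (-0.066 to 0.13). The shares of Mapk10 between tissues (-0.033 to 0.023 points), Map3k5 (-1.72 to 1.21) and Mapk8 (-1.85 to 0.037) between labels crossed 0 too, and that of Map2k4 between labels ran from -6.75 to -2.35. With 3 libraries a group and FPKM alone, the precision of low members such as Mapk8 cannot be told from depth.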
